A study of Mus musculus with 6 samples.

Results

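In PA6 cells, 27 probes of 45281 on the array, carrying 25 of its 30854 gene names (0.0596% of the probes), were detected after 3 h of FGF2 and neither in growth factor-free medium nor after BMP4. They were chosen by the detection p-values of the scans, which state how often negative control beads are as bright as the probe. A member had a detection p under 0.01 on both FGF2 arrays and of at least 0.05 on the other 4 arrays, and probes of IL1RL1, SEMA7A, SPRY4, LOC240672, EGR3 and SPP1 were left out, of which only SPRY4 met the thresholds (28 probes with it). These thresholds used all 6 arrays, so that the differences between treatments given below for the members are a description of how they were chosen and carry no test.

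The cells are a murine stromal line of mesenchymal origin, used as the feeder layer under differentiating embryonic stem cells, and here they were grown to confluence without stem cells. Monolayers then spent 3 h in serum-free medium with no growth factor (-GFs, 2 wells), with recombinant FGF2 at 20 ng/ml (2 wells) or with recombinant BMP4 at 10 ng/ml according to the labels (5 ng/ml in the methods on co-cultures, 2 wells). Each replicate number stands for 1 well of every treatment, and the RNA of each well was hybridized to an Illumina MouseWG-6 v2.0 BeadChip, whose probes are populations of beads carrying 1 oligonucleotide each. All 6 wells come from 1 cell line, so that the arrays describe this line and not stroma in general.

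FGF2 binds receptor tyrosine kinases and switches on the RAS-ERK cascade, which induces a first wave of transcription factors of the EGR, FOS, JUN and ETV families within the first hour. A second wave follows that includes secreted growth factors, cytokines, surface receptors and matrix-remodelling proteins, and feedback inhibitors of the cascade itself. BMP4 acts through receptor serine kinases and SMAD proteins instead. In stromal cells, the second wave is of interest because its secreted products can act on neighbouring cells.

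The labelled cell type was checked with marker lists. Of 12 mesenchymal stromal markers, among them the collagen genes COL1A1 and COL3A1 and the receptor gene PDGFRA, 10 were detected on all 6 arrays. Of the markers of other cells on the array, 1 of 7 haematopoietic, 1 of 7 endothelial, 1 of 6 pluripotency, 0 of 5 neuronal and 1 of 7 adipocyte genes were detected on all 6 arrays. In the same order 6, 5, 4, 3 and 1 were detected on no array, so that most adipocyte genes were detected on some array. Detection was sufficient for a test with FGF2 in only 1, 2, 1, 0 and 3 of them. None of these passed, nor did any of the 11 mesenchymal markers tested. The median intensity of the 45281 probes was between 153.4 and 168.1 on the arrays, and 15509 to 16459 probes had a detection p under 0.05. There are only 2 arrays in each group, which limits all precision, and the smallest two-sided p of an exact permutation between 2 such groups is 0.333.

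The promoters of member genes are shown first, because the study's treatments act through transcription factors that bind short motifs. RefSeq windows of GRCm38.p6 were at hand for 20 of the 25 names (22 windows, as 3110082D06RIK and KRT13 have 2 start sites each), and the 250 bases before each start site were searched on both strands. In 6 genes the window held a motif of the FOS-JUN complex AP-1 (TGANTCA), of EGR proteins (GCGGGGGCG), a full CRE (TGACGTCA, the element of CREB and ATF proteins) or a TATA box (TATAAA). Their sequences follow, 5′ to 3′ on the gene's own strand and ending at the base before the start site, with these motifs in capitals.

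SSTR2: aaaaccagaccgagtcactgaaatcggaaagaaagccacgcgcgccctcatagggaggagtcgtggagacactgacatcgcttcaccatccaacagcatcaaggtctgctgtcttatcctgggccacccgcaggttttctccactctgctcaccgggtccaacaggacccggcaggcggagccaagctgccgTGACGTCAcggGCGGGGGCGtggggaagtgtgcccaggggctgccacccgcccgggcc
FGF2: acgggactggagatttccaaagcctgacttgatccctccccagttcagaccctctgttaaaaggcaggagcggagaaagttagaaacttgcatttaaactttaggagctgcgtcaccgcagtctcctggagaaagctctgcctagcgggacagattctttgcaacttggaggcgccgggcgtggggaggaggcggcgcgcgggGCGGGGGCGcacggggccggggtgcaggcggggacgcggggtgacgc
METRNL: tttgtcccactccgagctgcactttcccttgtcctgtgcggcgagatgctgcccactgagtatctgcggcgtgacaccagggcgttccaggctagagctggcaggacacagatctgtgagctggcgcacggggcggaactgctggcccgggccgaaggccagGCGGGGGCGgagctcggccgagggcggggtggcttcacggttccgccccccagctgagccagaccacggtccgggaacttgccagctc
IVL: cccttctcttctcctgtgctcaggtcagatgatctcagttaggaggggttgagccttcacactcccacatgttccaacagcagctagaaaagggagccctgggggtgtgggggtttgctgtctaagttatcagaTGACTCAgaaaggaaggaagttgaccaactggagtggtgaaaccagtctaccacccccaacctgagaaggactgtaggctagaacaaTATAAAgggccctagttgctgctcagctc
KRT13: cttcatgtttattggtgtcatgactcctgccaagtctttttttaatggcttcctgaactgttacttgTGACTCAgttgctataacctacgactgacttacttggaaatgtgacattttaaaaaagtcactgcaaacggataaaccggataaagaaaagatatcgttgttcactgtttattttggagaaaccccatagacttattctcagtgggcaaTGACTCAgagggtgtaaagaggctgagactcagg
LIF: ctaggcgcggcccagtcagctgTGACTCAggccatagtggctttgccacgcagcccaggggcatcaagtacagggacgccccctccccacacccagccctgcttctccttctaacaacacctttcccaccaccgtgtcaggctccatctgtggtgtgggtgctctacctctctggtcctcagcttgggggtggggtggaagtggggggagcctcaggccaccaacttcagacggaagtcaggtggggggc

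The SSTR2 window (chr11:113619077-113619326, plus strand) held a full CRE from base -58 to -51 and an EGR motif from -47 to -39. The FGF2 window (chr3:37348403-37348652, plus strand) had the same EGR motif at the same place, from -47 to -39, and the METRNL window (chr11:121702177-121702426, plus strand) had it from -88 to -80. IVL (chr3:92573736-92573985, minus strand) combined an AP-1 motif at -116 to -110 with a TATA box at -29 to -24. The KRT13 window printed above (chr11:100120578-100120827, minus strand) had AP-1 motifs at -183 to -177 and -34 to -28, and the window of its other start site (chr11:100121567-100121816, minus strand) had another at -196 to -190. In the LIF window (chr11:4257318-4257567, plus strand) the AP-1 motif lay at -228 to -222.

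The share of windows with each motif can be read against all 32851 RefSeq windows of the same length. AP-1 motifs were in 4 of 22 member windows (18.2%, against 6.75% of all). These windows belonged to 3 of 20 genes, as both KRT13 windows held AP-1 motifs. The EGR motif GCGGGGGCG was in 3 windows (13.6%, against 2.57%) and the full CRE in 1 (4.55%, against 1.55%). The short CRE TGACG, which also lies within each full CRE, was in 9 (40.9%, against 17.8%), and the TATA box in 1 (4.55%, against 12.4%). The CArG box of the serum response factor, the ETS motif CCGGAAG and the second EGR form GCGTGGGCG were in 0 member windows, against 1.47%, 6.91% and 0.536% of all. Any of these motifs other than the short CRE was in 7 member windows (31.8%, against 29% of all). The member windows had a median GC content of 59.6%, all windows one of 52.4%, and motifs such as GCGGGGGCG and TGACG hold more G and C than TATAAA. The part of GC content in these shares was not tested, and a match is a description of letters and not of a bound site.

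**Figure D1:**
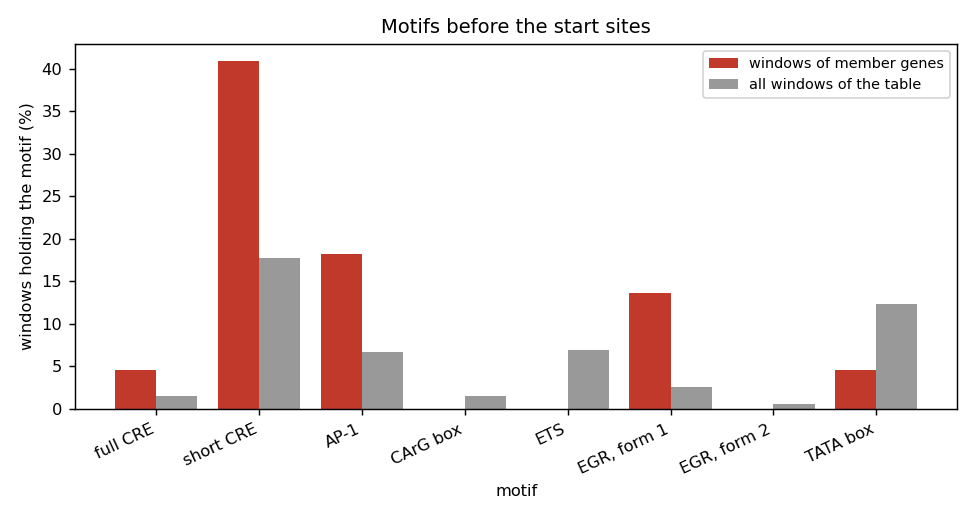
Share of 250-base windows before a start site (y axis, percent) that hold each motif (x axis), for the 22 windows of member genes (red) and all 32851 windows of the RefSeq table (grey). EGR form 1 is GCGGGGGCG and form 2 GCGTGGGCG. Member windows hold the short CRE in 40.9% of cases and the ETS motif and the CArG box in none.

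Intensities below are the deposited brightness values, in arbitrary units and before normalization, in the order -GFs replicates 1 and 2, FGF2 replicates 1 and 2, and BMP4 replicates 1 and 2. Brightness depends on the oligonucleotide as well as on the transcript, so that values are compared within a probe and not between probes. Across the members, every value on an FGF2 array was at or above 226.9, and the other 4 arrays stayed between 101.3 and 200.5, around the lowest intensity with a detection p under 0.05 (180.1 to 200.9 by array). The median member had 264.9 and 279.2 on the FGF2 arrays, 168 and 155.9 on the -GFs arrays and 153.8 and 174.4 on the BMP4 arrays. Members were therefore dim even when detected, and only 7 of the 27 had a detection p of 0 on both FGF2 arrays.

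**Figure D2:**
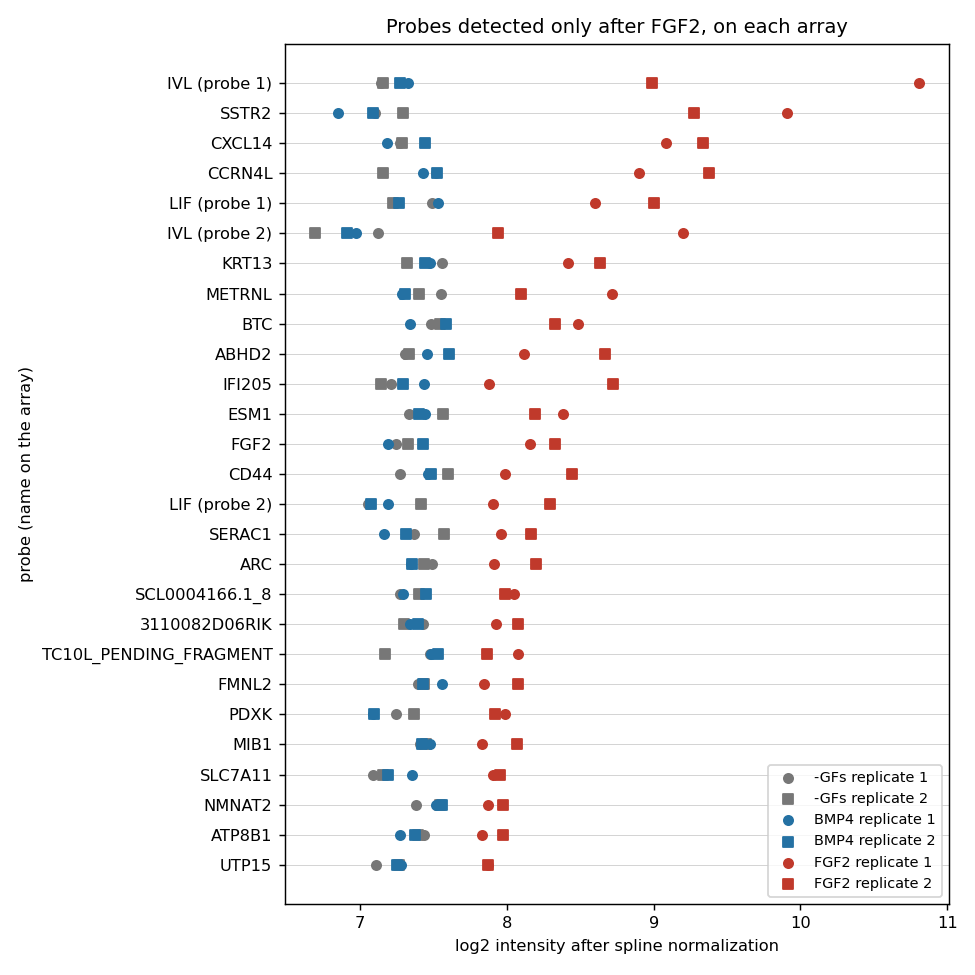
Log2 intensity after spline normalization (x axis) of the 27 member probes (y axis, by their name on the array) on each of the 6 arrays, with -GFs in grey, BMP4 in blue and FGF2 in red, circles for replicate 1 and squares for replicate 2. In every row both FGF2 arrays lie to the right of the other 4, a separation that the selection of the probes fixes.

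Where a group did not detect a probe, its change is known only as a lower bound. This bound divides the mean of the FGF2 arrays by that of the other group, in which any array below the dimmest detected signal of its scan is raised to that signal, all on normalized log2 values. It allows for the undetected signal only and not for the spread between the FGF2 replicates. The fold of a single FGF2 array can therefore be below the value given as at least. Differences called fitted are those of limma, a linear model fitted to log2 intensities of 16111 probes, those detected throughout 1 or more groups, given with their standard error (SE). A probe is called by an absolute log2 difference over 1 with a Benjamini-Hochberg adjusted p under 0.1. FGF2 against -GFs called 338 probes higher (2.10%) and 181 lower (1.12%), and 9 of the 27 members were among the 338, a count that the selection itself brings about. In the fit blocked by replicate number 376 probes were higher (2.33%), again with 9 members, and with neqc, a normalization that subtracts the background, 556 (3.45%) with all 27. Without FGF2 replicate 1 or 2 the members called were 7 or 4. The median fitted difference was 0.84 over the members and -0.01 over all probes tested. In bulk RNA, more cells of a type and more RNA per cell cannot be told apart.

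The members with secreted products were LIF, CXCL14, BTC, FGF2, ESM1 and METRNL, 6 genes with 7 probes, whose fitted log2 differences between FGF2 and -GFs went from 0.84 to 1.93. LIF encodes leukaemia inhibitory factor, the cytokine that keeps mouse embryonic stem cells undifferentiated through the receptor LIFR-gp130. Its probe ILMN_3137287 read 188.8 and 144.5 in -GFs, 386.4 and 483.9 with FGF2, and 175.6 and 160 with BMP4, at least 2.31-fold higher with FGF2 than in -GFs. A second member probe of LIF, ILMN_3137291, read 136 and 164.5, then 238.6 and 297.9, then 138.6 and 140.1, at least 1.42-fold. Both probes were highest on FGF2 replicate 2, and every array without FGF2 was below both FGF2 arrays. The other 3 LIF probes were detected on no array, with fitted differences between -0.11 and 0.40. For the receptor, LIFR read 284.1 and 267.5 in -GFs and 207.4 and 264.5 with FGF2 (log2 difference -0.17), and IL6ST, which encodes gp130, read 699.6 and 770.4 against 536.8 and 829.3 (-0.05). Both receptor chains were thus detected on all 6 arrays, and after normalization their ranges in both groups overlapped.

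CXCL14 encodes a chemokine that attracts monocytes and natural killer cells. Its member probe read 160 and 150.9 in -GFs, 546 and 613.7 with FGF2, and 138 and 180.1 with BMP4, at least 3.08-fold higher with FGF2 than in -GFs. Both FGF2 arrays were more than 3 times as bright as any other array on the raw scale. A second CXCL14 probe, no member because it was detected on -GFs replicate 2, read 196.1 and 196.6 in -GFs, 649.8 and 1076.4 with FGF2, and 161.4 and 182.6 with BMP4 (log2 difference 2.12 between FGF2 and -GFs). Both probes were brighter on both FGF2 arrays than on any other.

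BTC encodes betacellulin, a ligand of the EGF receptor. It read 188.3 and 179.7 in -GFs, 357.4 and 305 with FGF2, and 153.8 and 198.5 with BMP4, at least 1.76-fold above -GFs. FGF2 replicate 1 was the brighter, while BMP4 replicate 2 came close to detection (deposited detection value 0.05449). Its receptor genes EGFR (4179.5 and 3396.5 in -GFs, 2189.4 and 3127.1 with FGF2) and ERBB2 (610.2 and 592.9, then 553.1 and 666.1) were detected on all 6 arrays, and ERBB3 and ERBB4 on none.

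The FGF2 transcript was itself a member. Its probe read 157 and 155.3 in -GFs, 286 and 305.5 with FGF2, and 138.7 and 178.5 with BMP4, which is at least 1.57-fold above -GFs (fitted log2 difference 0.95, SE 0.16). The added FGF2 was a recombinant protein, and the array measures RNA of the cells. Of the FGF receptors, FGFR1 read 513.7 and 696.6 in -GFs against 439.8 and 496 with FGF2 (log2 difference -0.25). FGFR2 read 6413 and 4520.9 against 2006.7 and 2111.9 (-1.29). FGFR4 was detected on no array and FGFR3 on 1 of the -GFs arrays only. Among the receptors detected on every array, FGFR2 was lower on both FGF2 arrays than on any other, and the normalized values of FGFR1 overlapped between groups.

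ESM1 encodes endocan, a proteoglycan secreted by endothelial and other cells that answers to growth factors. It read 168 and 182.2 in -GFs, 334.2 and 279.2 with FGF2, and 165.4 and 175.3 with BMP4, at least 1.62-fold above -GFs. METRNL, a secreted relative of the neurotrophic factor meteorin, read 198.5 and 163.5, then 418 and 263.9, then 148.1 and 163.9, at least 1.76-fold. On FGF2 replicate 1 METRNL was 0.61 log2 units above replicate 2. Its relative METRN went the other way, reading 8535.1 and 6587 in -GFs and 3643.7 and 2749.9 with FGF2 (log2 difference -1.15).

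Of the members that encode membrane proteins, SSTR2 was called in both FGF2 comparisons. It encodes a receptor of somatostatin, a peptide that restrains hormone release and proliferation. SSTR2 read 141.1 and 151.5 in -GFs, 964.1 and 587.9 with FGF2, and 109.7 and 141.3 with BMP4, at least 4.0-fold above -GFs (fitted log2 difference 2.39, SE 0.23). FGF2 replicate 1 was 0.63 log2 units above replicate 2, and both were far above every other array. A second SSTR2 probe was detected on no array and read 150.5 and 172.5 in -GFs and 131.4 and 125.9 with FGF2 (log2 difference -0.34), so that the gene rests on 1 probe. The other somatostatin receptor genes SSTR1, SSTR3, SSTR4 and SSTR5 and the ligand genes SST and CORT were detected on no array.

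CD44 encodes the hyaluronan receptor of mesenchymal cells. The member probe read 159.7 and 187.2 in -GFs, 252.8 and 331.2 with FGF2, and 167.3 and 185.4 with BMP4, at least 1.54-fold above -GFs. It describes only that probe, because CD44 had 8 others on the array. One of them read 3757.2 and 3999.3 in -GFs, 7846.9 and 9994.9 with FGF2, and 2756.8 and 3542.7 with BMP4 (log2 difference 1.31 between FGF2 and -GFs). Another read 1186.3 and 1181.7, then 2515.6 and 2805.6, then 861.1 and 1072.3 (1.24), and the other 6 were detected on no array. CD44 RNA was therefore measured in every group, and higher on both FGF2 arrays by each of the probes detected there. HAS2, which encodes a hyaluronan synthase, read 252 and 258.9 in -GFs and 290.1 and 494.9 with FGF2 (log2 difference 0.63). It was not called (adjusted p = 0.246 by limma over all probes tested). In the limma fit blocked by replicate number its adjusted p was 0.00584, with the fold still below the threshold.

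SLC7A11 encodes the cystine-glutamate exchanger that feeds glutathione synthesis. Its member probe read 139.4 and 137.9 in -GFs, 238.9 and 241.4 with FGF2, and 155.5 and 152 with BMP4, at least 1.27-fold above -GFs, with FGF2 replicates that lay 0.05 log2 units apart. Of its 4 other probes, 3 were detected on no array, and the fourth read 204 and 212.9 in -GFs, 188.9 and 226.9 with FGF2, and 187 and 207.5 with BMP4 (log2 difference 0.02). The probes of SLC7A11 thus differed, the one detected on both -GFs arrays showing no separation between the groups. SLC3A2, whose product pairs with this exchanger, was detected on 1 FGF2 array and 1 -GFs array.

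ATP8B1, a flippase that moves phospholipids across the membrane, read 181.2 and 162.5 in -GFs, 226.9 and 244.5 with FGF2, and 147.1 and 172.4 with BMP4, at least 1.24-fold above -GFs. Its 2 other probes were detected on no array. 3110082D06RIK, now named Ptchd4 after a domain it shares with the Hedgehog receptor patched, read 180.5 and 152.1, then 242.2 and 260.3, then 153.5 and 174.4, at least 1.33-fold. Both lay close to the limit of detection also with FGF2.

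The epithelial structural genes IVL and KRT13 were members in a stromal line. IVL encodes involucrin, a precursor of the cornified envelope of keratinocytes. Its probe ILMN_1233243 read 145.2 and 138.2 in -GFs, 1786.8 and 478.2 with FGF2, and 152.2 and 160.5 with BMP4. By the mean of both FGF2 arrays it was at least 4.94-fold above -GFs (fitted log2 difference 2.75, SE 0.51). The second probe, ILMN_2733290, read 143.1 and 101.3, then 590.6 and 238.8, then 119.6 and 124.6, at least 1.97-fold. On both probes FGF2 replicate 1 was the brighter, by 1.82 and 1.27 log2 units. They were the only members whose FGF2 replicates differed by more than 1 log2 unit. Without FGF2 replicate 1 the fitted difference of ILMN_1233243 fell to 1.84, and without FGF2 replicate 2 it was 3.66, so that its size depends on which array is kept. On all arrays it had the largest fitted difference of the members, and without FGF2 replicate 1 those of SSTR2 (2.08), CXCL14 (2.06) and CCRN4L (2.04) were larger.

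**Figure D3:**
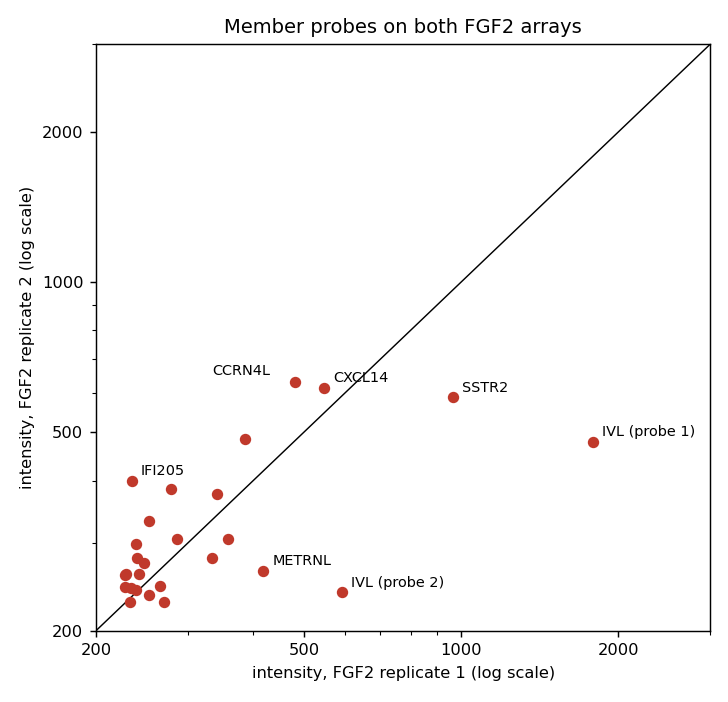
Deposited intensity of the 27 member probes on FGF2 replicate 1 (x axis, log scale) and FGF2 replicate 2 (y axis, log scale), with a line of equality. Both IVL probes lie far below the line, SSTR2 and METRNL lie below it and IFI205 above it, and 17 of the 27 probes had the higher deposited intensity on replicate 2.

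KRT13, a keratin of the lining of the mouth and oesophagus, read 199 and 154.1 in -GFs, 341 and 375.6 with FGF2, and 168.8 and 180.1 with BMP4. It was at least 1.91-fold higher with FGF2 than in -GFs, and -GFs replicate 1 came close to detection (deposited detection value 0.05128). Its FGF2 replicates differed by 0.22 log2 units, far less than those of IVL. Of the 5 genes of the cornified envelope looked up beside IVL, chosen after the members were known, LOR, EVPL, PPL and the crosslinking enzyme gene TGM3 were detected on no array. TGM1, the fifth, was detected on 1 -GFs and 1 FGF2 array (213.1 and 181.2 against 203.5 and 159.1), and KRT4, the usual partner keratin of KRT13, on 1 array of each group (185.1 and 217.2 against 202.3 and 189).

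Among the enzymes, RNA-processing and nuclear proteins (8 genes), CCRN4L moved most. It is the array's name for Noct, which encodes nocturnin, a phosphatase of rhythmic expression that is induced early by many stimuli. The member probe read 192.9 and 138.1 in -GFs, 480.7 and 629.3 with FGF2, and 163.2 and 190.4 with BMP4, at least 2.93-fold above -GFs. A second probe was detected on all arrays and read 310.2 and 287.7, then 1812.2 and 2286.3, then 243.4 and 328.9 (log2 difference 2.84 between FGF2 and -GFs). CCRN4L was thus present without FGF2 as well, and both of its probes were brighter on both FGF2 arrays and brightest on replicate 2.

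ABHD2, a lipid hydrolase, read 164.4 and 155.9 in -GFs, 277.9 and 384.4 with FGF2, and 166.4 and 200.5 with BMP4, at least 1.74-fold above -GFs. Its 2 other probes, detected in -GFs on 1 array and on none, had log2 differences of 0.45 and 0.40 between FGF2 and -GFs, and sizes against undetected values cannot be ranked between probes. IFI205, an interferon-inducible nuclear protein, read 153.2 and 136.8, then 234.1 and 399.4, then 164.2 and 162.5, at least 1.63-fold. FGF2 replicate 2 of IFI205 was 0.84 log2 units above replicate 1. A second IFI205 probe read 223.6 and 240.7 in -GFs and 462.1 and 888.1 with FGF2 (log2 difference 1.51) and showed the same order of replicates, and the remaining probe read 193 and 173.3 against 205.1 and 239.7 (0.31). IFI205 belongs to a cluster of closely similar genes, and whether its probes tell them apart was not tested. The neighbours IFI202B, IFI203 and IFI204 were detected on no array.

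PDXK makes the active form of vitamin B6. Its member probe read 157 and 159.8 in -GFs, 253.1 and 236.4 with FGF2, and 129.4 and 142.3 with BMP4, at least 1.29-fold above -GFs. A probe that the array names 2310036D04RIK, a synonym of the same gene in RefSeq, read 1596.1 and 1395.3 in -GFs, 5422.6 and 6281 with FGF2, and 1182.8 and 1036.2 with BMP4 (log2 difference 2.07). The gene was therefore measured in all groups, and both probes were brighter on both FGF2 arrays than on any other.

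NMNAT2, which makes NAD in axons, read 173.5 and 179.9 in -GFs, 233.1 and 243.6 with FGF2, and 173.3 and 194.4 with BMP4, at least 1.26-fold above -GFs. A second probe detected on all arrays read 303.5 and 271.9, then 456.8 and 520.4, then 262.6 and 299.7 (log2 difference 0.85). MIB1, a ubiquitin ligase that activates Notch ligands, read 177.6 and 168.5, then 227.1 and 258.9, then 169 and 178, at least 1.28-fold. Of these 3 probes, each was higher on both FGF2 arrays than on any other, the member probes by the selection. The Notch ligand gene JAG1 was detected on all arrays (log2 difference -0.04), and DLL4 and JAG2 on none.

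UTP15, a subunit of the machinery that processes ribosomal RNA, read 141.9 and 148 in -GFs, 232.7 and 228.5 with FGF2, and 147.7 and 158.1 with BMP4, at least 1.21-fold above -GFs, the lowest bound of all members. SERAC1, which remodels mitochondrial phospholipids, read 171.9 and 183.2, then 247.4 and 273.6, then 135.9 and 164.8, at least 1.38-fold. Both genes were called in no comparison. The 2 other SERAC1 probes were detected on no array.

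The remaining members were ARC and FMNL2, which act on the cytoskeleton, and names that no current symbol matched. ARC, an activity-induced gene of neurons, read 188.6 and 167.5 in -GFs, 239.6 and 280.4 with FGF2, and 154.7 and 169.5 with BMP4, at least 1.38-fold above -GFs. FMNL2, a formin that elongates actin filaments, read 175.8 and 167.1, then 228.8 and 259.6, then 178.7 and 178.4, at least 1.29-fold. A second FMNL2 probe, detected on all arrays, read 1556.2 and 1311.1 in -GFs, 3400.9 and 3638.8 with FGF2, and 1890.7 and 2176.4 with BMP4. On that probe FGF2 arrays were 1.37 and BMP4 arrays 0.60 log2 units above -GFs. Its relative FMNL3 read 1324.5 and 1651.4 in -GFs, 3485.3 and 4459.9 with FGF2, and 1590.2 and 2249.1 with BMP4 (1.49 and 0.45), while FMNL1 was detected on no array. SCL0004166.1_8 and TC10L_PENDING_FRAGMENT were at least 1.34-fold and 1.30-fold above -GFs.

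**Figure D4:**
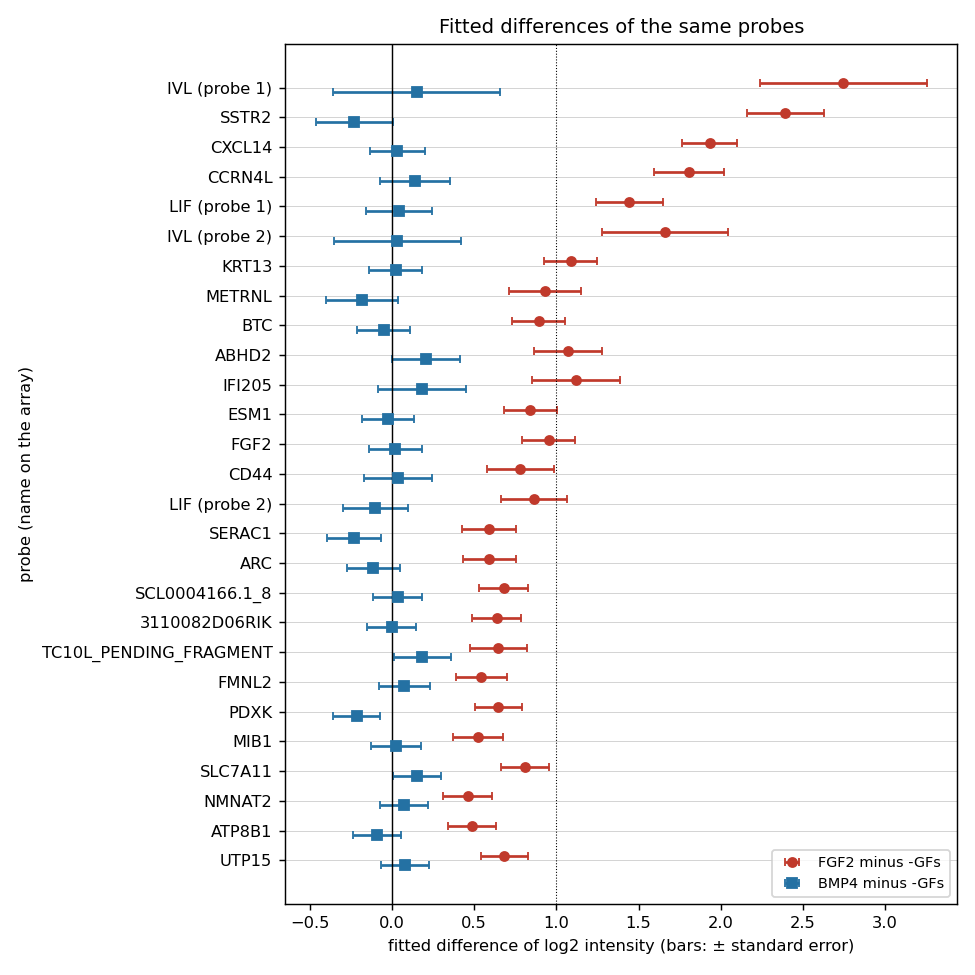
Fitted log2 differences between FGF2 and -GFs (red circles) and between BMP4 and -GFs (blue squares) of the 27 member probes (y axis), with bars of 1 standard error from limma and a dotted line at a difference of 1. The FGF2 differences go from 0.46 to 2.75 and the BMP4 differences from -0.23 to 0.21.

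None of the member probes was called with BMP4 against -GFs. The selection itself favours this, because members had to be undetected in both of these groups. Their fitted differences between BMP4 and -GFs went from -0.23 to 0.21 with a median of 0.03, and 17 of 27 were above 0. Over all 16111 probes limma called 1 higher with BMP4 (0.00621%) and 0 lower, 287 had an unadjusted p under 0.05, and a fit blocked by replicate number gave 9 higher (0.0559%) and 2 lower (0.0124%). The 1 call was ID1, a SMAD target, which read 980.6 and 799.2 in -GFs and 5036.5 and 6335.9 with BMP4 (log2 difference 2.77, adjusted p = 0.0107 by limma), and it was lost when any -GFs or BMP4 array was left out. The ID2 probe ILMN_1228557 (log2 difference 1.72) and ID3 (2.10) were also higher with BMP4, but not called (adjusted p = 0.133 and 0.9997 by limma). In the limma fit blocked by replicate number their adjusted p was 1.79e-06 and 1.96e-07. The other ID2 probe (0.48) had 0.416 there. Directly against BMP4, FGF2 called 294 probes higher (1.82%), among them 8 members, both IVL probes, SSTR2, CXCL14, CCRN4L, LIF (ILMN_3137287), KRT13 and METRNL. The 9 members called against -GFs were the first 7 of these with ABHD2 and IFI205. Both comparisons share the FGF2 arrays, and the selection used all of them.

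Other patterns of detection were counted by the same thresholds, and they differ in how many arrays had to detect the probe. Detected only with BMP4 were 0 probes, only in -GFs 1, with FGF2 and BMP4 but not in -GFs 0, and with FGF2 and -GFs but not BMP4 0. In -GFs and BMP4 but not with FGF2 there were 23, not far below the 28 detected only with FGF2 when SPRY4 is counted. Of the probes detected with FGF2 and absent in -GFs, whatever BMP4, there were 56.

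The selection turns on small differences in detection p for members near a threshold. On the FGF2 arrays, the highest detection p was 0.00962 for TC10L_PENDING_FRAGMENT and UTP15, 0.00855 for IVL (ILMN_2733290) and PDXK and 0.00748 for MIB1. Just outside, at 0.01068, lay C330006P03RIK, CXXC5, FMNL3 (another probe than the one above), LOC269628 and RAMP3. On the other arrays, the lowest detection p was 0.05128 for KRT13 and ABHD2, 0.05342 for FMNL2 and 0.05449 for BTC and METRNL. On the far side of that threshold were PILRA (0.04808), 5430414B19RIK (0.04701), GCH1 (0.04594), E530016P10RIK and HBEGF (0.04487 each). With a detection p of at least 0.1 required elsewhere 13 probes remained, and with detection on the FGF2 arrays at a p under 0.05 there were 167. Without -GFs replicate 1 or 2 the same thresholds gave 42 or 38 probes, without FGF2 replicate 1 or 2 they gave 65 or 67, and without BMP4 replicate 1 or 2 they gave 37 or 32.

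The other probes of a member gene could show its RNA without FGF2, but could not show that the gene was silent. Of the 25 names, 11 had no other probe on the array, and 14 had 30 others, of which 17 were detected on no array. In 7 genes (CCRN4L, CD44, FMNL2, IFI205, NMNAT2, PDXK and SLC7A11) another probe was detected on both -GFs arrays, and in ABHD2 and CXCL14 on 1 of them. For 5 genes (ATP8B1, LIF, METRNL, SERAC1 and SSTR2) no other probe was detected in -GFs. In ATP8B1, LIF, SERAC1 and SSTR2 these probes were undetected with FGF2 as well, so that they cannot decide the question. The other METRNL probe read 158.9 and 134.7 in -GFs and 243.8 and 195.4 with FGF2 (log2 difference 0.58). The 12 other probes detected on both FGF2 arrays had a median log2 difference between FGF2 and -GFs of 1.27, from 0.31 to 2.84, and 7 of them, from 6 genes, exceeded 1. Choosing these 12 by detection with FGF2 favours higher values there. It leaves out the SLC7A11 probe detected on both -GFs arrays (log2 difference 0.02) and the 17 probes detected on no array. The 12 were also measured on the same arrays that chose the members, and carry no test.

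**Figure D5:**
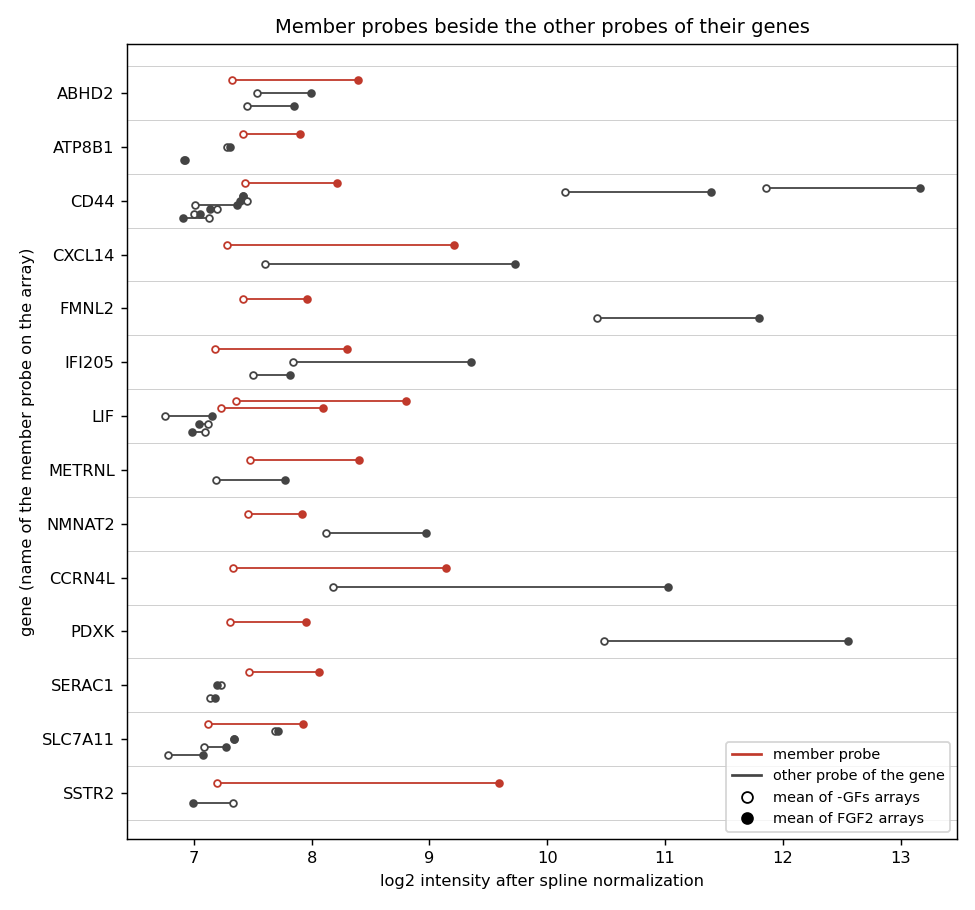
Mean log2 intensity after spline normalization (x axis) of the -GFs arrays (open points) and of the FGF2 arrays (filled points), joined by a line, for the member probes (red) and the other probes (dark grey) of the 14 genes that also have a probe that is no member (y axis). Of the 8 other CD44 probes 2 lie to the right of the member in both groups, as do the other probes of FMNL2, PDXK, CCRN4L and NMNAT2, while the other probes of LIF, SSTR2 and SERAC1 were detected in neither group.

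Several members are of kinds that growth factors are known to induce, and other genes of these kinds were counted from gene lists. Over 11872 genes, each by its brightest probe, 268 were called higher with FGF2 (2.26%) and 148 lower (1.25%). In the 7 lists of the response, 80 genes that are no members were tested, 27 of them were called higher and 0 lower, and their median log2 difference was 0.70, against -0.02 for all genes. The lists were written with earlier results of these data known, so that these counts and the median are a description and no test of the lists. Without FGF2 replicate 1 or 2, 18 or 9 of the 80 were called, the remaining FGF2 array being taken to vary like the other groups. By list, without FGF2 replicate 1 or 2, the calls were 3 or 1 for secreted factors, 3 or 2 for surface receptors, 6 or 4 for transcription factors and 4 or 2 for feedback inhibitors. Among secreted growth factors, cytokines and chemokines, the kind of LIF and FGF2, 6 of 15 rose, among them HBEGF (log2 difference 1.47, adjusted p = 0.00937), an EGF receptor ligand like BTC, with VEGFA (1.29), the chemokine genes CCL2 (2.26) and CCL7 (1.44), and TGFB1 (1.14). Among surface receptors, the kind of CD44, 5 of 10 rose, TNFRSF12A (3.88, adjusted p = 0.0012), the integrin gene ITGA5 (2.54), THBD (1.81), OSMR (1.09) and SDC1 (1.02). OSMR encodes a receptor chain for a cytokine of the LIF family.

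Among extracellular proteases and their regulators 2 of 8 rose, PLAUR (1.65) and TIMP1 (1.43), but 0 without FGF2 replicate 2. Of the transporters and metabolic enzymes of growth, the kind of SLC7A11, 0 of 7 were called by limma. However, 2 of them, the glucose transporter gene SLC2A1 (0.94) and ODC1 (0.73), had an adjusted p under 0.1 below the threshold on the fold. In the limma fit blocked by replicate number HAS2 (0.63) and SPHK1 (0.67) did so as well, and 0 were called. Among cytoskeletal and neuronal activity genes, the kind of ARC, 1 of 12 rose, RGS16 (1.55), but 0 without either FGF2 array. Of the early response transcription factors 9 of 15 rose, among them the AP-1 genes FOS (1.61), FOSL2 (1.25), JUN (1.24) and JUNB (2.08), IER3 (2.52), the ETS genes ETV4 (1.65) and ETV5 (1.97), and the EGR genes EGR1 (4.19) and EGR2 (4.14). Motifs of the AP-1, ETS and EGR families were searched in the windows above, where the ETS motif was in 0 of 22 member windows. Whether these factors act on the members was not tested. Of the ERK feedback inhibitors 4 of 13 rose, DUSP4 (3.19), DUSP6 (3.55), SPRED1 (2.0) and PHLDA1 (1.92). Every adjusted p in these lists is limma's over all 16111 probes tested, and BMP4 called no gene of them.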

How the data were processed

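RNA of 6 wells of PA6 cells (3 groups of 2, grouped by the labels) was measured on Illumina MouseWG-6 v2.0 BeadChip arrays. The authors deposited intensities, mean bead brightness on a linear scale without normalization between arrays, and detection p-values for each of 45281 probes, made with GenomeStudio 2011.01 according to the submitters' processing notes. Of the deposited table, the 9 columns without a heading (filled on 2045 probe lines) and the 6 leftover lines were not used.

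Intensities were normalized by a re-implemented cubic spline (452 quantiles per array, 1 for each 100 probes), the normalization that the methods name, and converted to log2. The 16111 probes whose detection p was under 0.05 on both arrays of any group were tested with limma 3.58.1 in R 4.3.3 on all 6 arrays and 3 groups, with 3 residual degrees of freedom. All probes were kept, and p-values were adjusted (Benjamini-Hochberg) over all of them. Gene lists were counted with 1 probe per gene (11872 genes, the probe with the largest mean). The procedure was tested on simulated data. Replicate numbers pair the arrays, since by the labels each number is 1 well of every treatment, and arrays with the same number deviated together from their group means (correlations across probes of 0.588, 0.726 and 0.564).

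Array names were matched to RefSeq symbols of GRCm38.p6. Of the 25 member names 21 equalled a current symbol and 2 a synonym. Promoter windows were at hand for 20. Windows of ARC, ATP8B1 and MIB1 were not used here. Genes are printed under their array names.

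The members, gene lists and search motifs were chosen with earlier results of these data known, and the partner genes (receptors, ligands, relatives) after the members were known. Members were named by their brightness, difference, list, other probes and closeness to a threshold, with list genes past the threshold and genes that check the treatments. Alternatives were quantile, neqc (offset of 16) and median normalization, other detection filters, 1 probe per gene, the replicate block, the methods' t-test, no threshold on the fold, other detection thresholds, and each array left out in turn. Some genes of the lists and partners are not reported here.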

Additional observations from a re-analysis of the deposited data

How the results depend on the processing

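All members were higher with FGF2 than in -GFs under every setting run, as their selection requires, so that this is no sign of stability. Their median log2 difference (0.84) was 1.85 with neqc, which subtracts the background and called all 27, 0.80 with median scaling and 0.76 with 1 probe per gene (18 members left), and 0.75 to 0.92 with single arrays left out. The number of members (27) was 167 with a detection p under 0.05 on the FGF2 arrays, 167 with a p of at least 0.01 elsewhere, 13 with one of at least 0.1, and 32 to 67 with arrays left out. Probes called by FGF2 against -GFs (519) were 1014 with neqc (556 higher and 458 lower), 1703 without a threshold on the fold, 404 by the methods' t-test at an unadjusted p under 0.05 and 0 after Benjamini-Hochberg, and 98 to 554 with arrays left out. The share of rises among them (65.1%) was 54.8% with neqc and 51.0% with median scaling. The t-test is the one the methods give under general statistics, while for the arrays the methods name limma. BMP4 against -GFs (1) gave 0 with neqc, 2 without a filter, 8 and 0 by the t-test before and after Benjamini-Hochberg, and 0 to 1 with arrays left out. FGF2 against BMP4 (438) gave 801 with neqc and 104 to 466 with arrays left out. Called genes of the lists (27) were 9 to 27 with arrays left out. The causes were not tested, beyond the fewer arrays, probes or looser thresholds of each setting.

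With the replicate number as a block, that is, with arrays paired by number, 583 probes were called for FGF2 against -GFs, 501 for FGF2 against BMP4 and 11 for BMP4 against -GFs. The members' median stayed at 0.84 with 9 called, and the lists at 27. Genes with a motif other than the short CRE (6) were 5 in the 100 bases before the start. The members' -GFs and BMP4 intensities are those of undetected probes, so that their fold changes are bounds.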
